A study of Mus musculus with 374 samples.

Results

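The immediate early genes Fos, Fosb, Jun, Junb, Jund, Egr1, Ier2, Dusp1, Zfp36 and Klf6 were followed in single cells of 5 blood cell populations sorted from 1 mouse. These 10 genes were taken by name from the 19829 mouse gene rows of the count table, and each had exactly 1 row. No filter on their values was used, although earlier results of these data were known. The cells were 95 progenitor/stem cells (LSK, Lin- Kit+ Sca1+), 44 B lymphocytes (B220+ FSC-Alow), 96 granulocytes (Mac1+ Gr1+) and 96 erythroblasts (Ter119+ CD44+, FSC-Amid/high) from the marrow, and 43 T lymphocytes (CD3+ FSC-Alow) from the thymus. The mouse was a C57BL/6 female of 10 to 13 weeks. Both tissues were broken up mechanically, stained on ice for 1 hour and sorted into lysis buffer in the wells of 1 plate, with no treated or stimulated group. CEL-seq2, the protocol used, tags the 3' end of transcripts with a cell barcode and a unique molecular identifier (UMI), so that a count is a number of tagged molecules.

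Immediate early genes are transcribed within minutes of a stimulus from factors already present in the cell, without new protein synthesis, and their transcripts are short-lived. Fos and Jun proteins pair to form the transcription factor AP-1, Egr1 and Klf6 are zinc finger transcription factors, and Ier2 is a further early response gene. Dusp1, a phosphatase of MAP kinases, and Zfp36, a protein that binds AU-rich messenger RNAs and promotes their decay, are induced with them and limit the response. The genes are widely known to rise when tissue is dissociated and handled, as well as upon receptor signals, and in these data handling and signals in the animal cannot be told apart.

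The UMIs of each population were summed and divided by all UMIs on mouse genes to give CPM (counts per 1000000 UMIs). Every population is 1 sample, so the 95% intervals given (exact Poisson for sums, exact binomial for shares, exact conditional binomial for ratios) cover counting error only, and no test between populations was possible. The wells held 2241250 UMIs on mouse genes, with a median of 5289 per well and a range from 8 to 24033. The median was 7959 in the LSK cells, 6113.5 in the erythroblasts, 4347 in the T cells, 3880 in the granulocytes and 3028.5 in the B cells. All measured lineage markers (6 to 8 for each population) were highest in the population they mark, and 7 of 374 wells had a profile nearest to another population. As a measure of molecules carried over between wells, 10 lineage markers with 100 to 600 UMIs in their own population were read in the other populations. They reached there a median of 1.36% of their own level, at most 9.08%, and were seen in a median of 6.25% of the wells (range 0 to 28.4%). Over all 28 markers, most of them more abundant than the members, the median was 2.96%, the highest 17.5%, and the median share of wells 38.7%. The 17.5% was Car2 in the LSK cells, followed by 13.6% for Retnlg in the B cells. Car2 stood at 6.41% in the B cells, 5.31% in the T cells and 5.13% in the granulocytes. Its LSK value may therefore hold expression in these cells, which was not tested.

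The promoters of 5 of the genes are shown because Fos, Fosb and Jun were seen together in a single well, whereas Dusp1 and Klf6 were led by different populations. The 250 bases before the RefSeq transcription start (GRCm38.p6) are chr12:85473640-85473889 on the forward strand for Fos, chr7:19310046-19310295 on the reverse strand for Fosb, chr4:95052223-95052472 on the reverse strand for Jun, chr17:26508473-26508722 on the reverse strand for Dusp1 and chr13:5861239-5861488 on the forward strand for Klf6. Capitals mark TGACG, the core of the cAMP response element, TGACNTCA, its 8-base forms with any base at N, and TATAAA, all searched on both strands.
Fos: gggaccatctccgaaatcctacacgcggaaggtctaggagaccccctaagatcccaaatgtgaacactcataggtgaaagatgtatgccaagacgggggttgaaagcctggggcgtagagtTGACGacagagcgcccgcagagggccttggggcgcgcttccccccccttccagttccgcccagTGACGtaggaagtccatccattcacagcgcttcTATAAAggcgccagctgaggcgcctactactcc
Fosb: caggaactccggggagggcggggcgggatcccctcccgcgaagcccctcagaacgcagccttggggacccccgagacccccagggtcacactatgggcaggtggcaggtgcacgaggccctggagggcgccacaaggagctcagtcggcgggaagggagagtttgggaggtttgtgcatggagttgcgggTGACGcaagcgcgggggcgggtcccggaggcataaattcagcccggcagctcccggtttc
Jun: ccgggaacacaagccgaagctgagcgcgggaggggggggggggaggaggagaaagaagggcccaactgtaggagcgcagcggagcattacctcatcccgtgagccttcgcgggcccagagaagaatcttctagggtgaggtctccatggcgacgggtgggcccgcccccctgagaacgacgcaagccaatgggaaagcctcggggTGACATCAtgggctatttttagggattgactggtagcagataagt
Dusp1: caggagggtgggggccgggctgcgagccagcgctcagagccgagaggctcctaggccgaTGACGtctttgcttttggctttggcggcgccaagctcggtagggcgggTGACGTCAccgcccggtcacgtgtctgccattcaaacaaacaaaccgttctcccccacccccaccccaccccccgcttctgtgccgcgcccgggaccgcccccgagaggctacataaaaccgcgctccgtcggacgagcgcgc
Klf6: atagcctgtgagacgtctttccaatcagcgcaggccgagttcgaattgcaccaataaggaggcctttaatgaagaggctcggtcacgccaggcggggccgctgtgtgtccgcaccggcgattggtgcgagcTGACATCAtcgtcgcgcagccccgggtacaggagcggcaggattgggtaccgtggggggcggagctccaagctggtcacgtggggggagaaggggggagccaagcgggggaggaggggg

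TGACG was found in the promoters of Fos, Fosb, Junb and Dusp1, 4 of the 7 members searched, and in 17.8% of the 32851 RefSeq promoters cut to the same 250 bases. TGACNTCA was found in those of Jun, Dusp1 and Klf6, against 7.49% of all promoters, and in Dusp1 the match overlaps TGACG on both strands. TATAAA was found in that of Fos, against 12.4% of all. The AP-1 motif in its 7-base form TGANTCA was found in 0 of the 7, against 6.75%. Matches with 1 base more, such as TGACATCA of Jun, were counted under TGACNTCA only. The CArG box, the core of the serum response element, was found in that of Zfp36, against 1.47%. The sequence table matched 8 of the 10 genes and holds none for Egr1 and Ier2, and that of Jund was not searched because its RefSeq start lies 1210 bases from the only GENCODE transcript start. For the 7 searched, a GENCODE transcript starts within 30 bases, although a longer Dusp1 transcript starts 53656 bases away. A match says only that these letters occur in this window.

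Taken over the 10 genes, the summed level was highest in the granulocytes and the B cells and lowest in the erythroblasts. It was 964 CPM (871 to 1065) in the granulocytes, 928 CPM (773 to 1105) in the B cells, 704 CPM (592 to 830) in the T cells, 241 CPM (209 to 276) in the LSK cells and 187 CPM (156 to 223) in the erythroblasts. The granulocytes and the B cells, with a ratio of 1.04 (0.848 to 1.28), were not distinguishable, and every other pair of neighbours in this order had a ratio whose interval left out 1. The place of the lowest 2 depends on the scaling, as the LSK cells lay below the erythroblasts with TMM normalisation (189 against 267 CPM). The single wells spread widely in every population. In the granulocytes the wells ran from 0 through a median of 931 to 5540 CPM, in the B cells from 0 through 752 to 3706 CPM, and in the T cells from 0 through 484 to 3738 CPM. In the LSK cells they ran from 0 through 154 to 2963 CPM and in the erythroblasts from 0 through 173 to 950 CPM. The wells of all 5 populations therefore overlapped.

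Counted as molecules rather than as a share of the cell's UMIs, the populations lay closer together. The mean was 4.05 UMIs of the 10 genes per granulocyte, 3.28 per T cell, 2.86 per B cell, 2.12 per LSK cell and 1.30 per erythroblast. At least 3 of the 10 genes were seen in 45 of 96 granulocytes, 12 of 43 T cells, 11 of 44 B cells, 15 of 95 LSK cells and 8 of 96 erythroblasts. A UMI of any of them was found in 95.8% of the granulocytes, 86.4% of the B cells, 81.4% of the T cells, 76.8% of the LSK cells and 65.6% of the erythroblasts. These shares rise with depth. When each well with at least 1000 UMIs was thinned to 1000, they were 63.8% (53.3 to 73.5) in the granulocytes, 55.8% (39.9 to 70.9) in the B cells, 35.7% (21.6 to 52.0) in the T cells, 21.1% (13.4 to 30.6) in the LSK cells and 18.9% (11.6 to 28.3) in the erythroblasts.

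The sum hides that the populations were led by different genes. Klf6 gave 42.9% of the members' UMIs in the granulocytes and Jund 46.8% in the B cells. In the T cells Jund gave 29.8% and Egr1 29.1%, in the erythroblasts Jund gave 43.2% and Dusp1 29.6%, and in the LSK cells Klf6 gave 22.9% and Ier2 19.9%. The granulocytes had the highest level of 4 genes (Junb, Ier2, Zfp36 and Klf6), the B cells of 2 (Jun and Jund), the LSK cells of 2 (Fos and Fosb, in a single well), the T cells of Egr1 and the erythroblasts of Dusp1. The lead over the next population was beyond counting error for Jun, Jund, Egr1 and Klf6. For Junb, Ier2, Zfp36 and Dusp1 the interval of that ratio held 1. For Fos and Fosb the populations with 0 UMIs could not be told from the LSK cells.

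**Figure D1:**
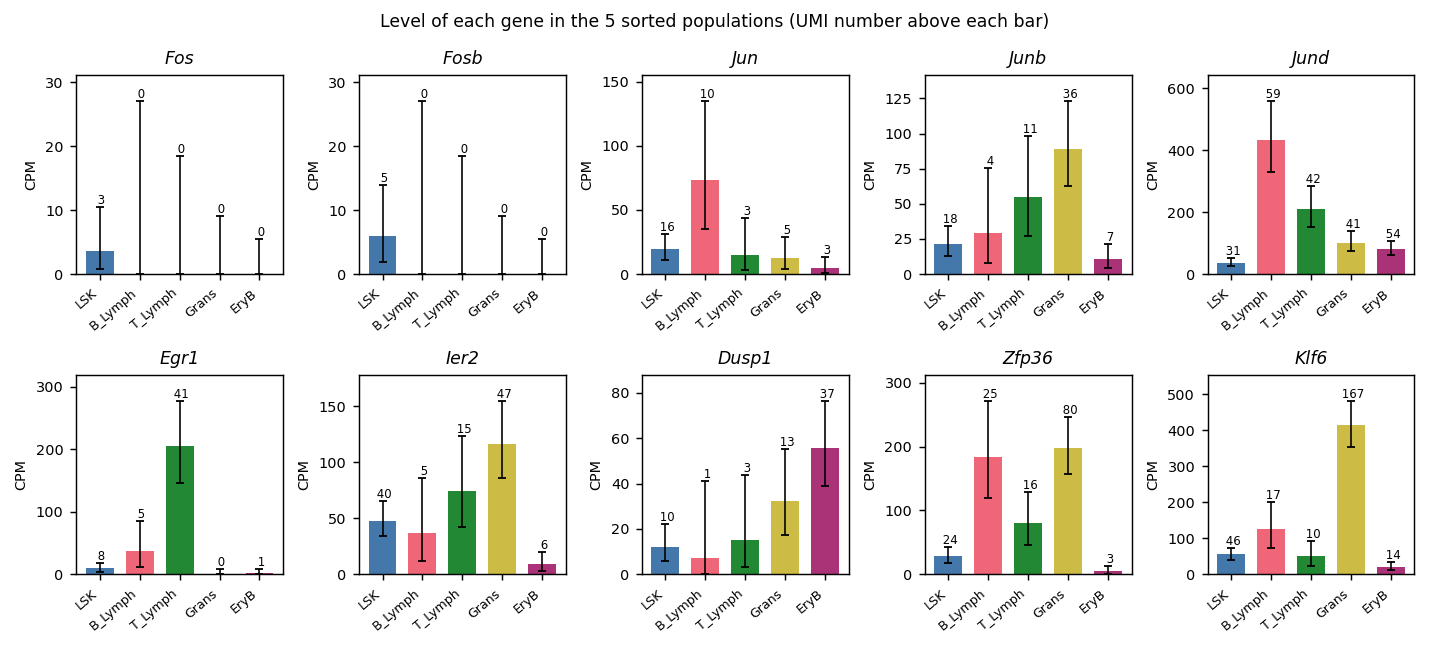
Level of each of the 10 genes (CPM, linear axis with its own scale for each gene) in the 5 sorted populations, with 95% exact Poisson intervals as error bars and the UMI number above each bar. Fos and Fosb have 3 and 5 UMIs in the LSK cells and 0 elsewhere, and the highest bar belongs to a different population for Jund, Egr1, Dusp1 and Klf6.

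Fos, which encodes the founding AP-1 subunit and is among the most used markers of cell activation, had 3 UMIs in the whole dataset, all in the LSK well K24. Fosb, its close relative, had 5 UMIs, all in the same well. None of the other 373 wells, with 2232137 UMIs, held a UMI of either gene, which allows up to 1.34 CPM for each (3 UMIs) and a UMI in up to 0.804% of such wells. Within the populations 0 UMIs allow up to 22.1 CPM in the B cells, 15.0 CPM in the T cells, 7.43 CPM in the granulocytes and 4.50 CPM in the erythroblasts, so no fold between populations is given.

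Well K24 stood out for the other members too. It held 9113 UMIs, against a median of 7959 in its population, and 27 of them lay on 7 of the 10 genes. Beside Fos and Fosb it had 9 UMIs of Jun, 4 of Dusp1, 3 of Ier2, 2 of Jund and 1 of Junb, and none of Egr1, Zfp36 and Klf6. The other 94 LSK wells held a median of 1 and at most 10 member UMIs, and no other well of any population held more than 2 UMIs of Jun. Its profile was nearest to the LSK cells, as labelled. The summed level of the LSK cells without it was 211 CPM. Because the well was singled out for these counts, no test was made of it.

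Jun, the main partner of Fos in AP-1, had 37 UMIs in 25 wells. It reached 73.6 CPM (35.3 to 135) in the B cells, where 8 wells had 1 UMI, 1 well had 2 and 35 had none. The level was 19.2 CPM (11.0 to 31.1) in the LSK cells, with 9 of the 16 UMIs in well K24, and 8.48 CPM (3.41 to 17.5) in the 94 other wells. It was 15.0 CPM in the T cells, 12.4 CPM in the granulocytes and 4.50 CPM in the erythroblasts, from 3, 5 and 3 UMIs. The B cells were 3.84-fold (1.56 to 9.00) above the LSK cells, whereas the remaining neighbours in the order were not distinguishable.

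Junb, an AP-1 subunit that can oppose Jun, had 76 UMIs in 61 wells. The wells ran from 0 to at most 1372 CPM, in a granulocyte, and the median well was at 0 in every population. Its level was 89.2 CPM (62.5 to 124) in the granulocytes, 54.9 CPM (27.4 to 98.2) in the T cells, 29.5 CPM (8.03 to 75.4) in the B cells, 21.6 CPM (12.8 to 34.1) in the LSK cells and 10.5 CPM (4.22 to 21.6) in the erythroblasts. No neighbours in this order differed beyond counting error, although the granulocytes were 8.50-fold (3.73 to 22.6) above the erythroblasts.

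Jund, the AP-1 subunit that is expressed without a stimulus in most tissues, was seen in the most wells, with 227 UMIs in 145 of 374. It reached 434 CPM (331 to 560) in the B cells, whose wells ran from 0 through a median of 409 to 2642 CPM, and 210 CPM (151 to 283) in the T cells, whose wells ran from 0 through 177 to 1041 CPM. The median well of the other populations was at 0. Their levels were 102 CPM (72.9 to 138) in the granulocytes, 81.0 CPM (60.8 to 106) in the erythroblasts and 37.1 CPM (25.2 to 52.7) in the LSK cells. The B cells were 2.07-fold (1.37 to 3.16) above the T cells and 11.7-fold (7.45 to 18.7) above the LSK cells. Of the neighbours in the order, the granulocytes and erythroblasts (1.25-fold, 0.815 to 1.92) were the only pair not distinguishable. In wells thinned to 1000 UMIs, a Jund UMI was found in 34.9% of the B cells (21.0 to 50.9; 63.6% unthinned) and 1.05% of the LSK cells (0.0266 to 5.73; 25.3% unthinned).

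Within the AP-1 family, therefore, the B cells were highest for Jun and Jund. The granulocytes were highest for Junb, although not distinguishable from the T cells. Fos and Fosb were at 0 in both the B cells and the granulocytes.

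**Figure D2:**
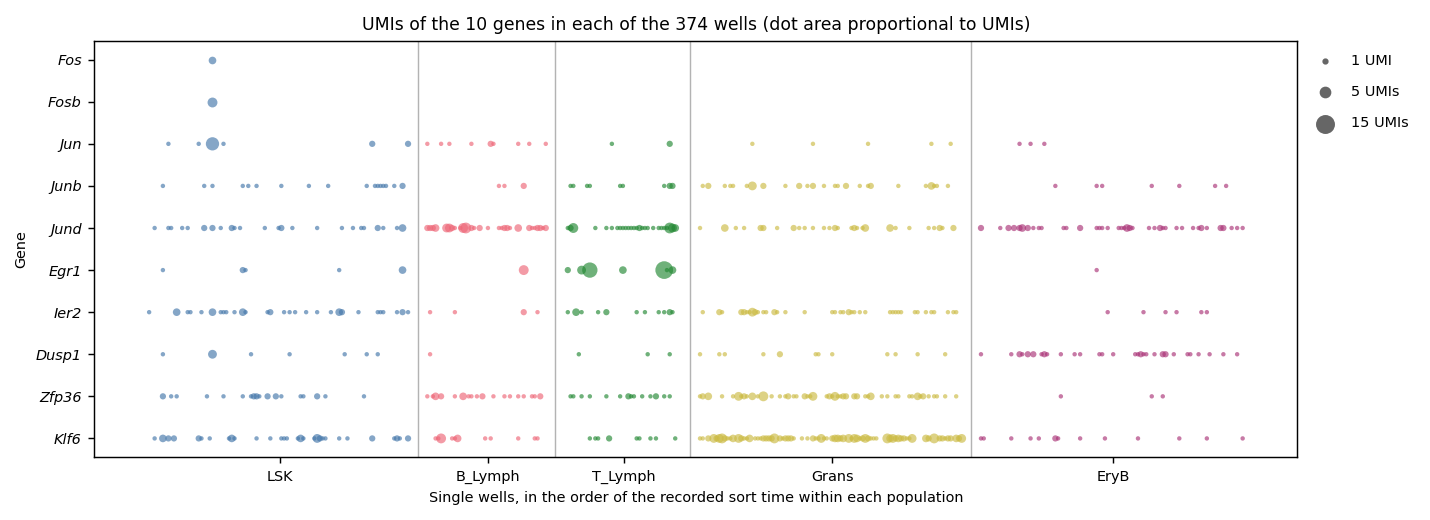
UMIs of the 10 genes in each of the 374 wells, placed within a population in the order of the recorded sort time, with the dot area proportional to the UMI number and no dot for 0. Fos and Fosb each have a single dot, in well K24, Egr1 is carried by few wells with large dots, and Klf6 and Zfp36 are spread over the granulocyte wells.

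Egr1, a zinc finger factor induced through MAP kinases and by antigen receptor signals in lymphocytes, was carried by few wells. It had 55 UMIs in 14 of the 374 wells, and 41 of them lay in 7 of the 43 T cells. These 7 wells held 16 (well P9), 12 (O10), 4 (O7), 3 (O22), 3 (P6), 2 (O2) and 1 (P8) UMIs, and the other 36 held none. The level in the T cells was 205 CPM (147 to 278), with a range over wells from 0 to 2991 CPM and a median of 0. P9 and O10 together held 68.3% of these UMIs, and without them the level was 68.2 CPM (36.3 to 117). In the B cells all 5 UMIs lay in well B7, giving 36.8 CPM (12.0 to 85.9). The LSK cells were at 9.58 CPM (4.14 to 18.9), the erythroblasts had 1 UMI, and the granulocytes had 0 UMIs, which allows up to 7.43 CPM. The T cells were 5.56-fold (2.20 to 18.0) above the B cells, and this ratio rests on UMIs of 7 wells and 1 well.

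In the T cells the wells with Egr1 also held most of the UMIs of Nr4a1 and Nr4a3, orphan nuclear receptors that antigen receptor signals induce in thymocytes. Nr4a1 had 20 UMIs in the 7 wells with Egr1 (604 CPM) and 3 in the 36 without (17.9 CPM). Nr4a3 had 19 UMIs in the wells with Egr1 (573 CPM) and 5 in those without (29.9 CPM). Well O7 held 14 of the Nr4a1 and 17 of the Nr4a3 UMIs, so that the figures for Nr4a3 rest mostly on this well. The only other well with both Egr1 and Nr4a3 was O22, with 2 UMIs of Nr4a3. Cd69, an early surface marker of lymphocyte activation, did not follow Egr1 in this way. It had 4 UMIs in O7 and 6 in all wells with Egr1, against 13 UMIs in 6 of the wells without. Well O4, without Egr1, also held 4. Egr2, the closest relative of Egr1 measured, had 2 UMIs in each of P9 and O10 and 2 in the 36 wells without Egr1. The total UMI count did not set these wells apart, with a median of 4347 in the wells with Egr1 and 4328.5 in those without. Cd4 was seen in 5 and Cd8a in 2 of the 7 wells, against 18 and 15 of the other 36. The wells and these relatives were picked after their values were seen, so the figures are a description without a test.

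**Figure D3:**
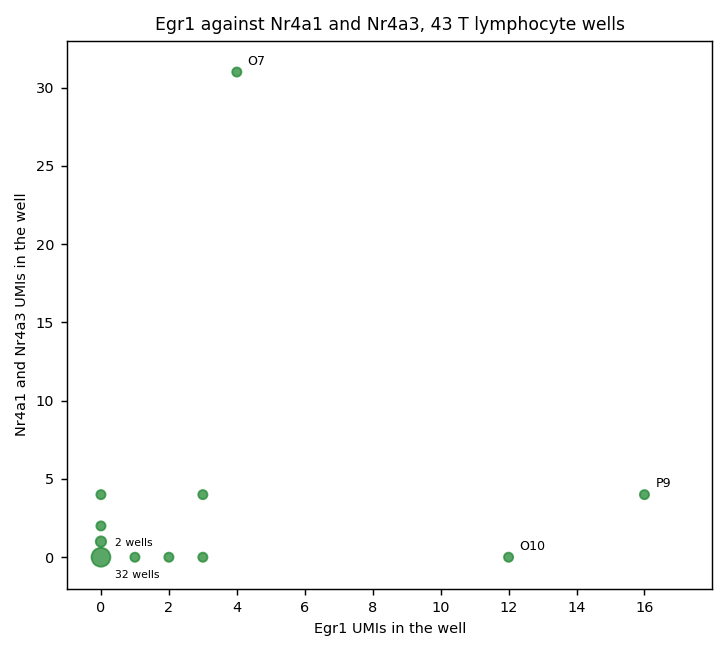
UMIs of Egr1 (x axis) against those of Nr4a1 and Nr4a3 together (y axis) in the 43 T cell wells, with the number of wells beside points that stand for several. In 32 wells all 3 genes are at 0, O7 has 4 UMIs of Egr1 and 31 of the other 2 genes, and O10 has 12 UMIs of Egr1 and none of the others.

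Ier2, an early response gene whose product acts in the nucleus, had 113 UMIs in 88 wells, and the median well was at 0 in every population. It was at 116 CPM (85.6 to 155) in the granulocytes, 74.9 CPM (41.9 to 123) in the T cells, 47.9 CPM (34.2 to 65.2) in the LSK cells, 36.8 CPM (12.0 to 85.9) in the B cells and 9.00 CPM (3.30 to 19.6) in the erythroblasts. No neighbours in the order were distinguishable. The granulocytes were 2.43-fold (1.56 to 3.80) above the LSK cells and 12.9-fold (5.52 to 37.0) above the erythroblasts.

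Klf6, a Krüppel-like factor, was the member with the most UMIs, 254 in 138 wells. In the granulocytes it was at 414 CPM (353 to 482), and 75 of 96 wells had a UMI, 25 with 1, 26 with 2 and 24 with 3 to 5. The granulocyte wells ran from 0 through a median of 410 to 1728 CPM, and the median well of every other population was at 0. The level was 125 CPM (72.9 to 200) in the B cells, 55.1 CPM (40.3 to 73.5) in the LSK cells, 49.9 CPM (23.9 to 91.8) in the T cells and 21.0 CPM (11.5 to 35.2) in the erythroblasts. The granulocytes were 3.31-fold (2.00 to 5.81) above the B cells and the B cells 2.27-fold (1.22 to 4.04) above the LSK cells, and the LSK cells 2.62-fold (1.42 to 5.17) above the erythroblasts. The T cells were not distinguishable from either neighbour in the order. In wells thinned to 1000 UMIs the share with Klf6 was 45.7% (35.4 to 56.3) in the granulocytes and 14.0% (5.30 to 27.9) in the B cells, from 78.1% and 25.0% unthinned.

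The inhibitors of the response were split between populations. Zfp36 had 148 UMIs in 102 wells, at 198 CPM (157 to 247) in the granulocytes and 184 CPM (119 to 272) in the B cells, a pair that was not distinguishable (1.08-fold, 0.680 to 1.76). The granulocyte wells ran from 0 through a median of 89.4 to 2216 CPM, and the B cell wells from 0 through 0 to 845 CPM. It was at 79.8 CPM (45.6 to 130) in the T cells, 28.7 CPM (18.4 to 42.8) in the LSK cells and 4.50 CPM (0.928 to 13.1) in the erythroblasts, and each of these steps was larger than counting error. The erythroblasts, with 3 UMIs of Zfp36 in 3 wells (3.13%), stood at 2.27% of the granulocyte level. That is within the range of molecules carried over between wells, and it was not read as expression. Relative to the highest population of the gene, 6 more levels above 0 lay under the 9.08% that the 10 markers reached: those of Jun (6.11%), Egr1 (0.733%), Ier2 (7.73%) and Klf6 (5.07%) in the erythroblasts, and of Jund (8.55%) and Egr1 (4.68%) in the LSK cells. These 6 have the same limit. The folds given for Jund against the LSK cells, and for Ier2 and Klf6 against the erythroblasts, are therefore against levels under that highest value. It was set by Flt3, a marker of the LSK cells, in the T cells. Of all 28 markers, those of the B cells reached at most 4.31% (Ighm) in the LSK cells. Those of the granulocytes reached at most 3.17% (Lcn2) in the erythroblasts. The part of carry-over in these levels was not tested. Under the 17.5% that all 28 markers reached lay another 6, which were those of Klf6 (13.3%) and Zfp36 (14.5%) in the LSK cells, Klf6 (12.1%) in the T cells, Dusp1 (13.3%) in the B cells, Jun (16.8%) in the granulocytes and Junb (11.8%) in the erythroblasts. That limit was set by Car2 in the LSK cells alone, which may be expression. The next marker value was 13.6%, and Zfp36 in the LSK cells and Jun in the granulocytes lay above it.

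Dusp1 followed another order than Zfp36. It had 64 UMIs in 53 wells and was highest in the erythroblasts, at 55.5 CPM (39.1 to 76.5), where 23 wells had 1 UMI, 7 had 2 and 66 had none. The granulocytes were at 32.2 CPM (17.2 to 55.1), the T cells at 15.0 CPM (3.09 to 43.7), the LSK cells at 12.0 CPM (5.74 to 22.0), with 4 of 10 UMIs in well K24, and the B cells at 7.36 CPM (0.186 to 41.0) from 1 UMI. No neighbours differed beyond counting error, while the erythroblasts were 4.63-fold (2.26 to 10.4) above the LSK cells. A Dusp1 UMI was found in 31.3% of the erythroblasts (22.2 to 41.5), and after thinning to 1000 UMIs in 6.32% of them (2.35 to 13.2) and 3.19% of the granulocytes (0.663 to 9.04).

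Jund and Dusp1 were thus the members with most erythroblast UMIs, 54 and 37, and in 15 wells both were seen. For the granulocytes, the pair seen together most often was Zfp36 and Klf6, in 38 of 96 wells, with 49 and 75 wells for each gene alone. Such pairs share the depth of the well, so these counts are a description.

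A gene was called past 2-fold in a population when its level differed at least 2-fold from the mean level of the other 4, among the 6317 genes with at least 50 UMIs. Of the members, 7 passed this filter, and Fos, Fosb and Jun did not. Junb, Egr1 and Dusp1 would not have passed without the population in which they were highest, so the counts and medians over the 7 are a description. In the granulocytes 4 were higher (Junb, Ier2, Zfp36 and Klf6), against 10.8% of all genes tested, and 1 was lower (Egr1), against 43.7%. Their median log2 ratio was 1.42 there, and that of all genes tested was -0.82. In the erythroblasts 6 were lower, against 43.4% of all genes, and Dusp1 was higher, against 13.3%, with medians of -2.94 for the members and -0.70 for all genes. In the LSK cells 6 were lower and 0 higher, against 13.2% and 19.1% of all genes, with medians of -1.47 and 0.30. In the B cells Jund and Zfp36 were higher and 0 members lower, against 7.28% and 15.1%, with medians of -0.38 and -0.18. In the T cells Egr1 was higher and Dusp1 and Klf6 were lower, against 11.6% and 17.9%, with medians of 0.36 and 0.05. Every comparison uses the same 5 sums, so these are not independent.

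The scaling moves these shares. With TMM factors, which assume that most genes do not differ, 17.4% of genes were higher and 27.6% lower in the granulocytes, and 23.6% and 31.8% in the erythroblasts. The values were 8.74% and 20.7% in the LSK cells, 4.76% and 25.3% in the B cells, and 6.00% and 27.9% in the T cells. Of the members' calls, Zfp36 in the B cells and Jund in the erythroblasts were lost and Ier2 became lower in the B cells, and the others were the same.

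Each population filled its own plate rows, so row and cell type cannot be separated. The marrow populations were sorted in turn, with recorded times starting at 9.92 (B cells), 94.32 (erythroblasts), 301.36 (granulocytes) and 496.48 (LSK cells). Of these, only the B cells and erythroblasts overlapped in time. The recorded times of the T cells (16.32 to 100.64) overlapped those of the B cells and of the first erythroblasts. The T cells came from the thymus, and whether their times run on the same clock is not given. Equal values therefore need not mean the same moment. The part of row and sort time in the order of the populations was not tested. Sort time and depth were read within each population. In the granulocytes the 47 wells recorded later had a summed level of 843 CPM and the 47 recorded earlier 1125 CPM, a ratio of 0.749 (0.611 to 0.919). The UMIs of the members were nearly equal, 194 against 195, and the later wells were deeper, with a median of 4266 UMIs against 3616. The ratio was 0.760 (0.570 to 1.01) in the LSK cells, 0.903 (0.623 to 1.30) in the B cells, 1.33 (0.940 to 1.90) in the T cells and 0.983 (0.681 to 1.42) in the erythroblasts, so that a change of the summed level with sort time was not detectable in these 4 at this depth. The lower ratio of the LSK cells rested on well K24, as without the highest well of each population it was 0.036 on the log2 scale, against -0.40 with it. For single genes with at least 10 UMIs, 4 of 26 ratios had an interval that left out 1. Zfp36 had a later to earlier ratio of 0.616 (0.385 to 0.979) in the granulocytes and of 0.364 (0.127 to 0.923) in the LSK cells, where K24 held none of it. Jun had a ratio of 0.294 (0.0692 to 0.971) in the LSK cells, with 9 of the 12 earlier UMIs in K24, and Jund of 2.02 (1.02 to 4.22) in the T cells. The intervals are not adjusted for the 26 ratios.

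The members' share of a granulocyte's UMIs was lower where its total was higher. Over the 94 granulocytes with at least 1000 UMIs, the summed CPM and the total UMI count, which is the denominator of the former, had a Spearman's rho of -0.53 and a Pearson's r of -0.39. In the other populations rho lay between -0.09 and 0.11. The 47 shallower granulocytes held 4.06 member UMIs per well and the 47 deeper ones 4.21, at median depths of 2631 and 5167 UMIs, so that the level was 1496 CPM in the former and 718 CPM in the latter, a ratio of 2.08 (1.70 to 2.56). The genes did not share this ratio. It was 7.20 (1.85 to 40.7) for Dusp1, 5.22 (2.58 to 11.2) for Jund, 2.78 (1.75 to 4.45) for Zfp36, 2.16 (1.06 to 4.40) for Junb and 1.64 (1.19 to 2.25) for Klf6, whereas Ier2 had 14 UMIs in the shallower and 33 in the deeper wells, a ratio of 0.916 (0.453 to 1.76).

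Genes of granulocyte maturation moved with the same division of wells. The specific granule genes Ngp, Ltf and Camp, which are made at an intermediate stage of neutrophil maturation, were lower in the shallower wells, with ratios of 0.388, 0.384 and 0.361. Mmp8 and Retnlg, which are made late, were higher, with ratios of 1.66 and 2.67. Over the 94 wells the members' CPM had a rho of -0.38 with the sum of Ngp, Ltf and Camp and of 0.21 with that of Mmp8 and Retnlg. The part of maturation and of depth in the members' level was not tested. In the other populations the shallower to deeper ratio of the summed level was 1.50 (1.04 to 2.17) in the B cells and had an interval that held 1 in the LSK cells, T cells and erythroblasts.

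**Figure D4:**
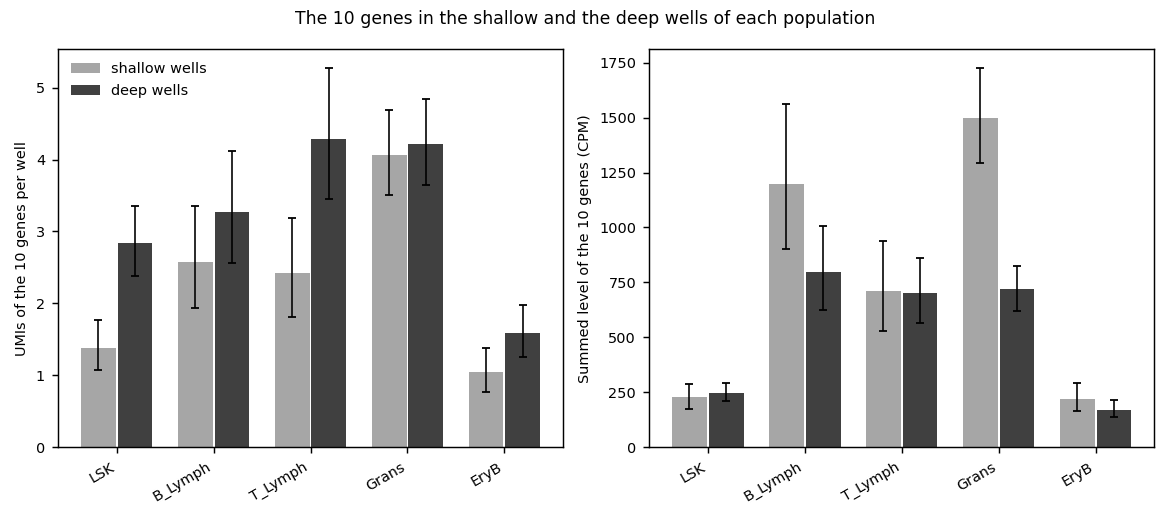
The 10 genes in the shallower and the deeper wells of each population, as UMIs per well (left) and as summed level in CPM (right), with 95% exact Poisson intervals as error bars. The granulocytes have 4.06 and 4.21 UMIs per well but 1496 and 718 CPM.

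Related genes were taken from 4 lists. Of the AP-1 relatives 5 of 10 had at least 50 UMIs, of the other early response genes 12 of the 22 with a row, of the kinases and factors upstream 9 of 13, and of the paralogs of members 7 of 9. Of these 33 genes 7 (Fosl2, Mafk, Ier3, Ppp1r15a, Rhob, Cd69 and Elk3) would not have reached 50 UMIs without the population in which they were highest, so the counts over the lists are a description. The AP-1 relatives were past 2-fold higher in the granulocytes in 3 of 5 cases, against 10.8% of all genes tested. These were Fosl2, the Fos relative at 107 CPM there and at most 9.98 CPM elsewhere, Jdp2, a repressor of AP-1, at 121 CPM, and Mafg, a small Maf factor, at 275 CPM. Atf4, a factor of the integrated stress response, and Mafk, another small Maf factor, were higher in the erythroblasts, with log2 ratios of 1.25 and 1.61. Fosl2 had 43 of its 53 UMIs in 29 granulocyte wells.

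Of the other early response genes, 9 of 12 were lower and 2 higher in the erythroblasts, against 43.4% and 13.3% of all genes, so that the number higher is near the background. Ppp1r15a, which directs a phosphatase to the initiation factor eIF2, had 287 UMIs in 89 of 96 erythroblasts (430 CPM) and at most 36.8 CPM in any other population, a log2 ratio of 4.14. Gadd45a, a growth arrest gene, was the other, with a log2 ratio of 1.37. The B cells were higher for 4 (7.28% of all genes), the antiproliferative genes Btg1 (567 CPM) and Btg2 (493 CPM), the quiescence factor Klf2 (324 CPM) and Nfkbia (434 CPM), the inhibitor of NF-kB. The T cells were higher for 3 (11.6% of all genes), Ier5, Nfkbiz and Cd69, with log2 ratios of 1.38, 1.17 and 2.46. The granulocytes were higher for 1, the small GTPase Rhob (log2 ratio 1.72), and lower for 2, against 10.8% and 43.7% of all genes. The number higher there is near the background. The LSK cells were higher for Ier3, with 47 of its 59 UMIs and a log2 ratio of 1.82. Summed over the 22 genes with a row, the level was 2739 CPM in the B cells, 2305 CPM in the T cells and 1995 CPM in the granulocytes. It was 1224 CPM in the erythroblasts and 661 CPM in the LSK cells. In the LSK cells 7 of the 12 were lower and 1 higher, against 13.2% and 19.1% of all genes.

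Upstream, Mapk3, which encodes the kinase ERK1, was at 265 CPM in the granulocytes and at most 61.1 CPM elsewhere, and Rps6ka1, a kinase downstream of ERK, was higher there with a log2 ratio of 1.19. Elk3, a partner of serum response factor, was higher in the LSK cells, at 64.7 CPM, Elk4 in the B and T cells with log2 ratios of 1.07 and 1.51, and Creb1 in the T cells with 1.08. The erythroblasts were lower for 5 of the 9, near the 43.4% of all genes. Over the 9 genes the median log2 ratio was -0.56 in the granulocytes and -1.02 in the erythroblasts, against -0.82 and -0.70 for all genes.

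Among the paralogs, the relatives of Zfp36 were highest in other populations than Zfp36 itself. Zfp36l2 had 277 of its 345 UMIs in the LSK cells (332 CPM, in 84 of 95 wells) and a log2 ratio of 2.32 there. Zfp36l1 was at 439 CPM in the T cells and 302 CPM in the B cells, and at 34.7 CPM in the granulocytes. Dusp2, a nuclear relative of Dusp1, was at 243 CPM in the B cells and 205 CPM in the T cells, and had 3 UMIs in the granulocytes. Klf3 was at 819 CPM in the erythroblasts, in 94 of 96 wells, with a log2 ratio of 2.17. Klf7 was higher in the granulocytes and T cells, with log2 ratios of 1.25 and 1.53. These lists were chosen with results of the data known.

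**Figure D5:**
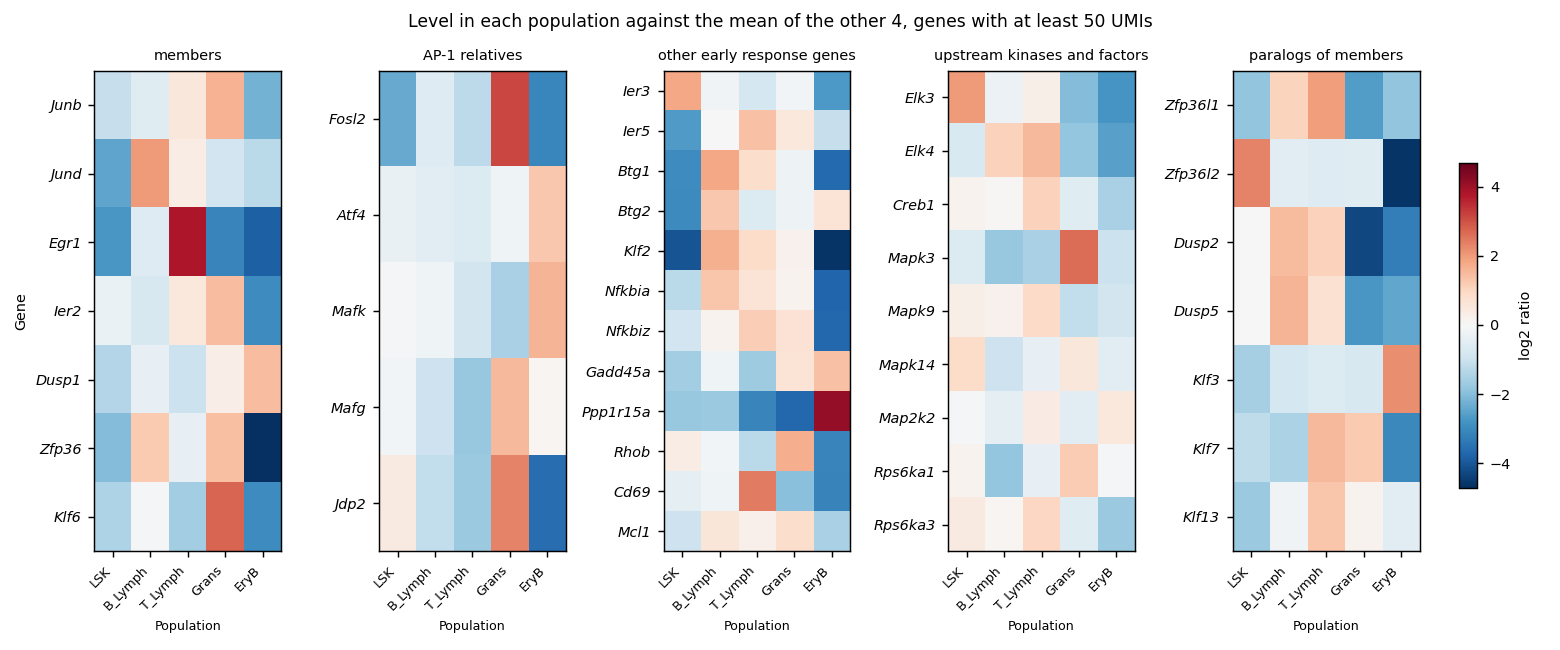
Log2 ratio of the level in each population to the mean of the other 4 (colour, blue lower and red higher) for the members and 4 lists of related genes with at least 50 UMIs. The erythroblast column is blue for most early response genes and red for Ppp1r15a at 4.14, and the granulocyte column of the AP-1 relatives is red for Fosl2, Mafg and Jdp2.

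Over the 5 populations, the 5 genes of 1911 whose level followed the summed members most closely included Mcl1, Trp53inp1, Tor1aip1 and Ppp2r5a, with Pearson's r on the log2(CPM + 10) scale between 0.96 and 0.99 over 5 points. Mcl1, a short-lived survival protein of the Bcl2 family and itself an early response gene, was at 530 CPM in the granulocytes, 464 CPM in the B cells, 389 CPM in the T cells, 194 CPM in the LSK cells and 138 CPM in the erythroblasts. Across wells, the highest mean of the 5 rhos within populations was 0.19, for Malat1. Its rho ran from -0.07 in the T cells to 0.56 in the granulocytes, where total UMIs ran opposite to the members' level (rho -0.53).

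By GENCODE M21 (GRCm38) the genes lie on chromosome 12 at 85473890 to 85477273 (Fos, ENSMUSG00000021250), chromosome 7 at 19302696 to 19310051 (Fosb, ENSMUSG00000003545), chromosome 4 at 95049034 to 95052222 (Jun, ENSMUSG00000052684), chromosome 8 at 84974484 to 84978718 (Junb, ENSMUSG00000052837) and chromosome 8 at 70698949 to 70700616 (Jund, ENSMUSG00000071076). Ier2 (ENSMUSG00000053560) lies on chromosome 8 at 84661331 to 84662852, Dusp1 (ENSMUSG00000024190) on chromosome 17 at 26505590 to 26562128, Zfp36 (ENSMUSG00000044786) on chromosome 7 at 28376784 to 28380253 and Klf6 (ENSMUSG00000000078) on chromosome 13 at 5861482 to 5870394, and the identifier of Egr1 is ENSMUSG00000038418. All are protein coding. Exons of Jun overlap those of Junos, Junb of Prdx2, Jund of Gm11175, Dusp1 of Ergic1 and Zfp36 of Gm44710, and as the use of strand is not stated, reads of these pairs may not be told apart. Prdx2, an abundant red cell peroxidase, is the overlapping gene of Junb, whose erythroblast level was 10.5 CPM.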

How the data were processed

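The authors deposited UMI counts per gene and well, whole numbers without normalization, from CEL-seq2 libraries processed with scPipe (alignment, exon assignment, demultiplexing and UMI collapsing). Which genome build, annotation and aligner version were used, and whether strand was, is not given in the sources used here. Table columns were assigned through their well names. For 9 of them no labelled cell exists here, and these stayed out. Symbols came from GENCODE M21 and promoters from RefSeq. Counts were summed per population over all 374 wells, whose totals ranged from 8 to 24033 UMIs, and scaled to CPM without ERCC. For 2-fold calls, sums under 3 UMIs were set to 3. Each population is 1 sample of 1 mouse, so no p-value was computed. The members, lists and alternatives were chosen with earlier results of these data known, among them the rules for named genes: the members, related genes with at least 50 UMIs, and the 5 genes most alike by each of the 2 correlations. A gene of the upstream list and one of the most alike genes are not reported here. Scripts used Python 3.11.15 with scipy 1.17.1, and R 4.3.3 with scran 1.30.0 and edgeR 4.0.16 (TMM factors only), and were tested on simulated counts.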

Additional observations from a re-analysis of the deposited data

How the results depend on the processing

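Values are log2 ratios of the summed level to the mean of the other populations, unless stated. The place of the LSK cells (-1.53) and erythroblasts (-1.92) below, and of the B cells (0.82) and granulocytes (0.90) above, held under every alternative, but the sizes and the order of neighbours depend on the scaling. The LSK cells lay below the erythroblasts with TMM, with scran size factors and without lineage markers in the denominator (246 against 250 CPM). The B cells lay above the granulocytes without ribosomal and mitochondrial genes in the denominator (1274 against 1183 CPM) and in wells with at least 2000 UMIs (927 against 914 CPM), and below the T cells when scaled to ERCC. With TMM the values were -1.94 for the LSK cells, 0.44 for the B cells, 1.52 for the granulocytes and -1.40 for the erythroblasts. With scran size factors they were -2.25, 0.35, 1.72 and -1.10 in the same order. Scaled to ERCC they were -0.56 for the LSK cells, 0.20 for the B cells and -1.10 for the erythroblasts. As a mean over wells the granulocytes were at 1.17, and without lineage markers in the denominator at 1.08, with the erythroblasts at -1.63. The T cells, at 0.28, turned to -0.17 with TMM, -0.47 with scran, and -0.15 without Egr1, Fos, Fosb and Jun (the granulocytes were then at 1.18), so their place above or below the mean is not settled. The last alternative, and leaving out each gene's highest well, were chosen after seeing the data. TMM moved the median log2 ratio of all genes from 0.30 to -0.13 in the LSK cells, -0.18 to -0.45 in the B cells, 0.05 to -0.33 in the T cells, -0.82 to -0.29 in the granulocytes and -0.70 to -0.03 in the erythroblasts.

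For single genes the highest population was the same under every alternative for Jun, Junb, Jund, Ier2, Dusp1 and Klf6. The size of the lead was not always so. For Jun, the B cells over the LSK cells went from 1.94 to 0.62 (log2) when scaled to ERCC, outside the counting interval. With scran size factors, Junb in the granulocytes over the T cells went from 0.70 to 1.98. Zfp36 in the granulocytes over the B cells went from 0.11 to 1.00 with the same factors. Zfp36 was higher in the B cells than in the granulocytes when ribosomal and mitochondrial genes were left out of the denominator. Egr1 kept the T cells as highest, except that its ratio to the B cells has no value without the highest wells, where the B cells are at 0. Fos and Fosb were at 0 without well K24.

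Shares of wells with a member UMI depend on depth. Thinned to 2000 UMIs they were 33.7% in the LSK cells, 78.8% in the B cells, 61.9% in the T cells and 76.7% in the granulocytes, and not thinned 76.8%, 86.4%, 81.4% and 95.8%, with 65.6% in the erythroblasts. Numbers of genes past 2-fold in either direction, 2038 in the LSK cells, 1416 in the B cells, 1862 in the T cells, 3442 in the granulocytes and 3583 in the erythroblasts, changed with the minimum count. With at least 20 UMIs there were 5564 in the granulocytes and 5851 in the erythroblasts. With at least 100 there were 1229 in the LSK cells, 1162 in the T cells, 2076 in the granulocytes and 2098 in the erythroblasts. Without a filter there were 11572 in the LSK cells, 11786 in the B cells, 5930 in the granulocytes and 15670 in the erythroblasts. The genes tested numbered 6317 in the main setting, 9512 with at least 20 UMIs, 3906 with at least 100 and 19826 without a filter. Sums set to 3 UMIs equal 22.1 CPM in the B cells but 3.59 CPM in the LSK cells. Without a filter, genes with almost no UMIs were therefore called by the totals of the populations. Fos and Fosb, with 0 UMIs in the B cells, were thereby called higher there, so the unfiltered numbers are not read as differences. The later to earlier ratio of the LSK cells moved from -0.40 to 0.036 (log2) without the highest well. No paired analysis was possible because each population is 1 sample of the same mouse, the numbers of the wells pair no cells, and no result comes from a test.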
